A study of Mus musculus with 6 samples.

Results

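The comparison described here sets 3 RNA sequencing libraries whose names carry a hyphen before the final number against the 3 whose names do not, which together are all 6 libraries of the series. The hyphenated libraries are PT-I-PpoI replicate 3 (named IpPoI-Tg-4) and wild type replicates 2 and 3 (control-4 and control-5). The plain ones are PT-I-PpoI replicates 1 and 2 (IpPoI-Tg1 and IpPoI-Tg2) and wild type replicate 1 (control1). The form of a name is a property of the label only. No label calls it a batch, and the labels give no age, sex, litter, preparation date or hour of tissue collection for any library. RNA came from kidney cortex of mice that carry I-PpoI, a homing endonuclease that makes double-strand breaks at a defined DNA sequence, in the proximal tubule (PT-I-PpoI), and of wild type (WT) mice, with 3 libraries per genotype. The promoter that drives I-PpoI and any inducing agent are not given in the sources used here. Whether every library stands for a separate mouse is not in the labels, and the p-values therefore speak only of the spread among these 6 libraries, which may be technical. Because the forms hold unequal numbers of each genotype, genotype was a term in the fit, and a difference between name forms means hyphenated minus plain at equal genotype unless a fit without genotype is named.

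Much of what follows concerns the circadian clock, a feedback loop of transcription factors that runs in most cells, kidney tubule cells included. BMAL1 (gene Arntl) pairs with CLOCK or NPAS2 and activates genes with E-box elements, among them the Per and Cry repressors, Nr1d1, Nr1d2, Ciart and Dbp. NR1D1 and NR1D2 in turn repress Arntl, Npas2 and Nfil3, while DBP, TEF and HLF activate and NFIL3 represses genes through D-box elements. The loop therefore holds 2 arms whose messages peak at opposite phases of the day. PPAR-alpha, a receptor for fatty acids, is a second regulator met below: it raises genes of fatty acid oxidation and ketone synthesis and is known to respond to fasting.

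Stretches of 5 promoters with a clock element are shown. They were picked from clock genes called higher in the hyphenated libraries because their windows hold the element, and Dbp and Nr1d2, whose windows held no match, are not shown. They are RefSeq sequences of build GRCm38.p6, written 5′ to 3′ on the strand of the gene, with the E-box CACGTG or the D-box TTATGTAA in capitals. Positions are counted from the start of the gene.
Ciart, E-box at position -116, chr3:95882317-95882366, minus strand: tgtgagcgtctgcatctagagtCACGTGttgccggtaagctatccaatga
Ciart, E-box at position -58, chr3:95882259-95882308, minus strand: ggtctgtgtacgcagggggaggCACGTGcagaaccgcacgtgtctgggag
Bhlhe41, E-box at position -153, chr6:145865546-145865595, minus strand: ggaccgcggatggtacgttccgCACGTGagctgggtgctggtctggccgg
Tef, E-box at position -127, chr15:81802524-81802573, plus strand: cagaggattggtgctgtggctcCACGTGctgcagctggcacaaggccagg
Coq10b, E-box at position -78, chr1:55052670-55052719, plus strand: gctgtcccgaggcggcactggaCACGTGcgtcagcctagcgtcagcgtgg
Per3, D-box at position -205, chr4:151044841-151044892, minus strand: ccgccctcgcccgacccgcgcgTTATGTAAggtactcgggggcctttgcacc
Per3, D-box at position -158, chr4:151044794-151044845, minus strand: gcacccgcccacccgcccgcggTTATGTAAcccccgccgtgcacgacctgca
The second Ciart stretch holds a further CACGTG, at position -44, left in lower case. Tef has 2 starts in the table, each with an E-box, and the stretch of the upstream start is shown. Windows of 300 bases (250 before to 50 after the start) were found for 10631 of the 13977 tested genes. The E-box was present in 11.5% of all these windows, in 14.7% of those of genes called higher in the hyphenated libraries and in 14 of 140 of those called lower. The D-box, searched as TTATGTAA and TTATGCAA on both strands, was present in 1.48% of all, 2.63% of the higher and 3.57% of the lower genes. Among clock genes called higher with a window, the E-box was present in 2 of 4 core genes and 2 of 8 output genes, and the D-box in 1 of 4 and 1 of 8. A match is a description of the letters and no evidence of binding.

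Total counts, in units of 1e+06 reads, were 17.6 to 20.77 in the plain and 13.58 to 20.86 in the hyphenated libraries. Scaling factors (TMM) were 0.963 to 0.988 in the hyphenated libraries, below those of all plain ones, which reached 1.05. At equal depth, 16648 to 16881 genes were detected in the plain and 16538 to 16693 in the hyphenated libraries. Cytosolic ribosomal protein genes took 2.15 to 2.83% of counts in the plain and 2.02 to 2.08% in the hyphenated libraries. Markers of the proximal convoluted tubule, the main tissue of the cortex, were present throughout, with 33 of 33 tested and a summed level of at least 29780 CPM, the counts of a gene scaled to 1e+06 counts per library. On the first principal component of log2 CPM, which held 43.1% of the variance among libraries, the 3 hyphenated libraries lay between 11.8 and 21.5 and the 3 plain ones between -30.1 and -0.539. Genotype was ordered on this component too. Among plain libraries PT-I-PpoI lay at -23.1 and -30.1 and wild type at -0.539. Among hyphenated ones PT-I-PpoI lay at 11.8 and wild type at 20.4 and 21.5. Wild type replicate 1 stood apart from the other 5 on the next component, at -29.2. Wild type replicate 3 stood apart in a set of liver transcripts described below. Results are therefore also given without each of these 2 libraries. Genotype, entered first, accounted for 29.2% of the variance among libraries, name form for a further 30.7%, and 40.1% was left. Because the forms hold unequal numbers of each genotype, the first 2 shares depend on that order.

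**Figure D1:**
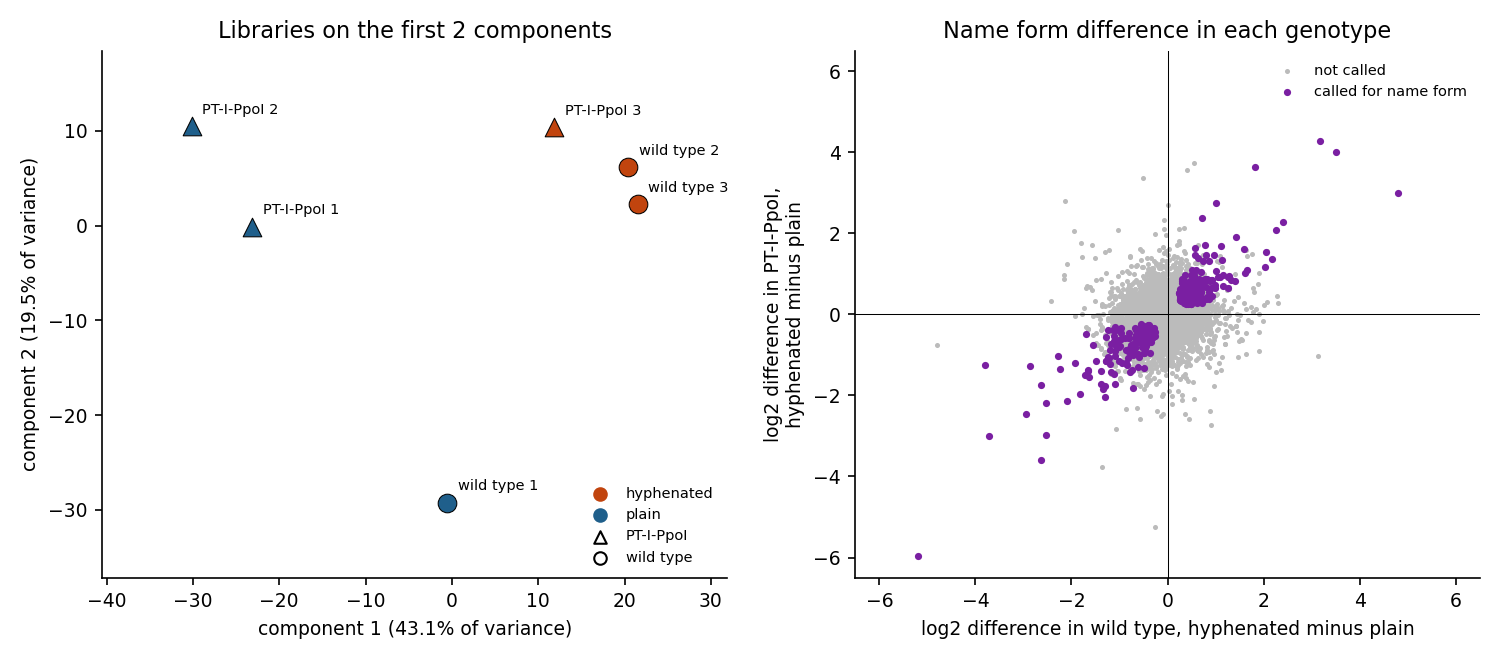
Left, the 6 libraries on the first 2 principal components of log2 CPM (percent of variance on each axis), coloured by name form and shaped by genotype; hyphenated libraries lie on the right and wild type replicate 1 lies apart at the bottom. Right, each dot is 1 of 13977 genes, with the log2 difference between name forms in wild type (x) against that in PT-I-PpoI (y); the 428 called genes lie in the quadrants of equal sign.

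Of 13977 genes tested, 248 were higher (1.77%) and 180 lower (1.29%) in the hyphenated libraries at an adjusted p under 0.05 by the quasi-likelihood test of edgeR (Benjamini-Hochberg), 428 or 3.06% in all. At an unadjusted p under 0.05 the shares were 9.82% and 9.01%. Most differences were small: the median was 1.41-fold for higher and 1.59-fold for lower genes, while 32 higher and 44 lower genes reached 2-fold. Over all tested genes the median log2 difference was -0.0071 and 48.6% lay above 0. The 3 hyphenated and 3 plain values did not overlap for 239 of the higher genes (12.3% of all tested genes were higher without overlap) and for 172 of the lower ones (13.1% of all). The form difference can also be taken within each genotype, where no library is shared. Across all 13977 genes these 2 differences had a Pearson correlation of 0.27 and a Spearman correlation of 0.23, and 57.7% of genes had the same sign in both. The number of called genes moved with the libraries used. Higher and lower genes numbered 111 and 111 without PT-I-PpoI replicate 1, 232 and 161 without PT-I-PpoI replicate 2, and 194 and 157 without PT-I-PpoI replicate 3. They numbered 558 and 295 without wild type replicate 1, 86 and 75 without wild type replicate 2, and 70 and 51 without wild type replicate 3. Leaving out wild type replicate 1 takes away the only plain wild type library, so the form difference then comes from PT-I-PpoI alone. Leaving out PT-I-PpoI replicate 3 likewise leaves it to wild type alone. Of the 428 genes, 99 were called in all 6 of these fits, 56 higher and 43 lower, and 329 lost their call in at least 1. With upper-quartile scaling, which moved the median of all genes to -0.042, 184 were higher and 218 lower. All 428 genes kept their direction in each fit with a library left out and with that scaling. They were picked from these same libraries and all had equal direction in both genotypes, so a kept direction is not separate support.

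**Figure D2:**
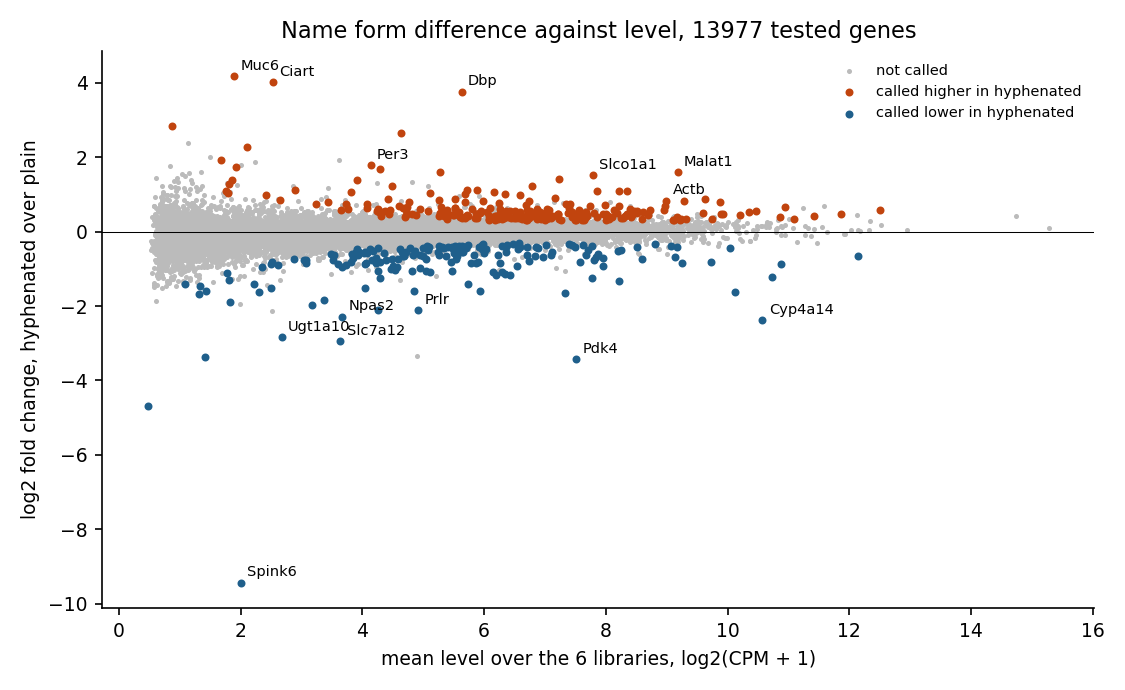
Each dot is a tested gene, with its mean level over the 6 libraries on the x axis (log2 of CPM + 1) and its log2 fold change, hyphenated over plain, on the y axis; coloured dots are the 248 genes called higher and the 180 called lower. Ciart, Dbp and Muc6 lie highest; Spink6 lies lowest, at a fitted value that depends on the prior count because its hyphenated counts are all 0.

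The core clock differed in both arms. Of 18 core clock genes, 5 were higher and 2 lower in the hyphenated libraries (background 1.77% and 1.29%), with a median log2 difference of 0.30 against -0.0071 for all genes. In each genotype alone the median was smaller, at 0.10 in wild type and 0.12 in PT-I-PpoI, and the list pools arms that moved oppositely. Values per library are given in a fixed order, first PT-I-PpoI replicates 1 and 2 and wild type replicate 1 (plain), then PT-I-PpoI replicate 3 and wild type replicates 2 and 3 (hyphenated). Ciart (gene at chr3:95878505-95882228, mm10), which encodes a repressor of the clock, stood at 0.582, 0.607 and 0.578 CPM in the plain libraries and 11.3, 8.03 and 7.47 CPM in the hyphenated ones. Every hyphenated library was far above every plain one, and Ciart was 16.3-fold higher in the hyphenated libraries (log2 difference 4.03 ± 0.21 SE, adjusted p = 0.000228). Among the period genes, which encode the main repressors, Per3 (chr4:151003655-151044665) stood at 7.51, 8.06 and 6.55 CPM in the plain libraries and 22.6, 29.9 and 24.95 CPM in the hyphenated ones and was 3.46-fold higher in the hyphenated libraries (log2 difference 1.79 ± 0.15 SE, adjusted p = 0.000928). Per2 (chr1:91415982-91459328) had 6.72, 8.61 and 10.4 CPM in the plain libraries and 28.99, 32.3 and 24.6 CPM in the hyphenated ones and was 3.2-fold higher in the hyphenated libraries (log2 difference 1.68 ± 0.16 SE, adjusted p = 0.0019). The groups of neither gene overlapped. Nr1d2, a nuclear receptor that represses Arntl, had 46.9, 44.9 and 44.2 CPM in the plain libraries and 89.9, 104 and 94.98 CPM in the hyphenated ones, tight groups that lay 2.1-fold apart (adjusted p = 0.000928). Bhlhe41, an E-box-binding repressor, was low, with 1.22, 2.32 and 0.771 CPM in the plain libraries and 4.54, 4.01 and 3.79 CPM in the hyphenated ones, and 3.37-fold higher in the hyphenated ones (adjusted p = 0.0257). Its call did not hold on leaving out any wild type library or PT-I-PpoI replicate 1 (adjusted p up to 0.0805), whereas the other 4 risers held with each library left out.

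The activating arm went the other way. Arntl (chr7:113207465-113314126) had 26.1, 24.9 and 37.3 CPM in the plain libraries and 10.6, 4.62 and 5.48 CPM in the hyphenated ones, so each hyphenated library lay below each plain one. It was 4.29-fold lower in the hyphenated libraries (log2 difference -2.10 ± 0.28 SE, adjusted p = 0.00835). Npas2 (chr1:39194272-39363240), whose product can replace CLOCK as partner of BMAL1, had 15.8, 13.8 and 27.4 CPM in the plain libraries and 4.32, 3.79 and 4.88 CPM in the hyphenated ones and was 4.86-fold lower in the hyphenated libraries (log2 difference -2.28 ± 0.20 SE, adjusted p = 0.000928). Clock itself, the usual partner, had overlapping groups, with 42.4, 44.3 and 50.9 CPM in the plain libraries and 52.5, 40.7 and 45.5 CPM in the hyphenated ones and a log2 difference of 0.02 ± 0.11 (adjusted p = 0.954). Other members missed the threshold: log2 differences were 0.96 ± 0.26 for Per1, 0.72 ± 0.28 for Nr1d1, -1.09 ± 0.39 for Cry1 and 0.58 ± 0.15 for Cry2, with adjusted p-values of 0.095, 0.205, 0.176 and 0.0752. Cry1 and Cry2, the cryptochrome repressors, thus had values of opposite sign. With wild type replicate 1 left out the core clock list held 5 higher and 2 lower genes and a median of 0.11, and with wild type replicate 3 left out it held 4 and 2.

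Genes that the clock is known to drive also differed. Of 20 clock output genes, 8 were higher and 4 lower (background 1.77% and 1.29%), with a median log2 difference of 0.40. Dbp (chr7:45705247-45710203), a D-box activator, had 7.25, 8.22 and 3.66 CPM in the plain libraries and 61.7, 116 and 93.9 CPM in the hyphenated ones. It was 13.6-fold higher in the hyphenated libraries (log2 difference 3.76 ± 0.33 SE, adjusted p = 0.00095). Its exons share 539 bases, 32.1% of their length, with the opposite-strand gene Sphk2, and counting set no strand, so reads of the pair could be left uncounted or mixed. The D-box activators Tef, with 133, 137 and 146 CPM in the plain libraries and 258, 379 and 324 CPM in the hyphenated ones, and Hlf, with 60.9, 65.7 and 94.4 CPM in the plain libraries and 125, 129 and 135 CPM in the hyphenated ones, were 2.14-fold and 1.66-fold higher (adjusted p = 0.00127 and 0.0112). Nfil3, which encodes the D-box repressor, moved oppositely to these activators. It had 11.7, 16.3 and 16.2 CPM in the plain libraries and 5.32, 2.8 and 3.93 CPM in the hyphenated ones and was 3.59-fold lower in the hyphenated libraries (log2 difference -1.84 ± 0.23 SE, adjusted p = 0.0058). Coq10b, a mitochondrial coenzyme Q binding protein, had nearly equal values within each form, with 31.2, 33.1 and 30.9 CPM in the plain libraries and 58.3, 57.8 and 57.7 CPM in the hyphenated ones (1.84-fold, adjusted p = 0.000928). Usp2, a ubiquitin protease under clock control, had 49.8, 47.01 and 91.4 CPM in the plain libraries and 158, 159 and 155 CPM in the hyphenated ones and was 2.36-fold higher (adjusted p = 0.00835). Tsc22d3, Klf13 and Por, the electron donor of cytochrome P450 enzymes, were the other genes that rose. Ypel2, which encodes a nuclear protein, had 32.9, 39.6 and 51.1 CPM in the plain libraries and 15.7, 12.2 and 14.6 CPM in the hyphenated ones and fell 3.01-fold (adjusted p = 0.00222). Leo1, a subunit of the PAF1 elongation complex, fell 1.46-fold (adjusted p = 0.0331), and Pdk4, the fourth gene that fell, is described with fatty acid oxidation, to whose list it also belongs. The calls of Leo1 and Por did not hold on leaving out single libraries (adjusted p up to 0.123 and 0.0724), while the other 10 held with each library left out. On leaving out wild type replicate 1, 10 genes of the list rose and 3 fell, and on leaving out wild type replicate 3, 7 and 3 did.

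**Figure D3:**
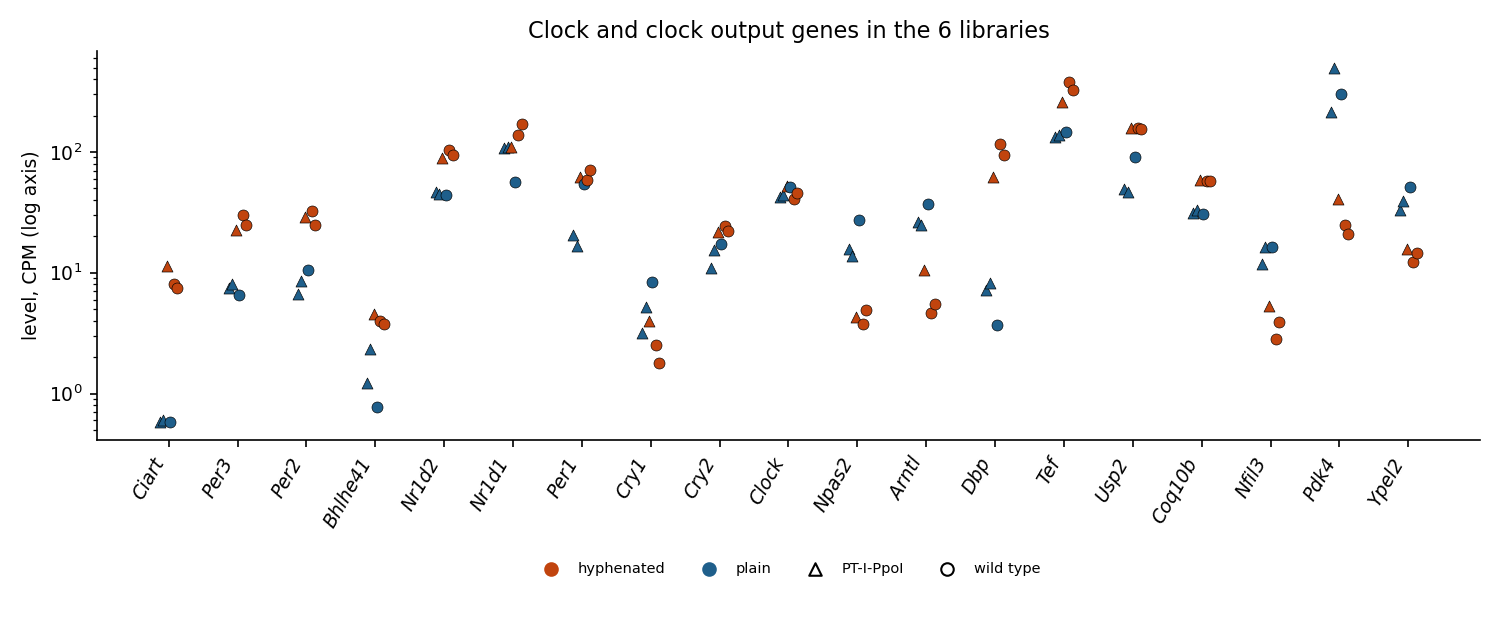
Levels of 19 clock and clock output genes (CPM, log axis) in each of the 6 libraries; colour gives the name form and shape the genotype. Red points lie above blue ones for Ciart, Per3, Per2, Nr1d2, Dbp, Tef and Coq10b, and below them for Npas2, Arntl, Nfil3, Pdk4 and Ypel2, while Clock overlaps.

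Fatty acid oxidation and PPAR-alpha targets were mostly lower in the hyphenated libraries. Of 32 genes on this list, 13 fell and 0 rose (background 1.29% lower), 23 had hyphenated values all below the plain ones (13.1% of all genes did), and the median log2 difference was -0.40. Summed over the list, levels were 20910 to 27400 CPM in the plain and 14140 to 14940 CPM in the hyphenated libraries, without overlap. Pdk4, a kinase that shuts pyruvate out of the citric acid cycle, had 212, 491 and 301 CPM in the plain libraries and 40.5, 24.9 and 21.02 CPM in the hyphenated ones. It was 10.7-fold lower in the hyphenated libraries (log2 difference -3.42 ± 0.30 SE, adjusted p = 0.00102). Cyp4a14, a fatty acid omega-hydroxylase, had 2207, 3719 and 1915 CPM in the plain libraries and 627, 384 and 286 CPM in the hyphenated ones and was 5.2-fold lower in the hyphenated libraries (log2 difference -2.38 ± 0.20 SE, adjusted p = 0.000928). Its family member Cyp4a10 had 2141, 3047 and 2109 CPM in the plain libraries and 1145, 860.2 and 881 CPM in the hyphenated ones and was 2.34-fold lower (adjusted p = 0.0023); near-identical Cyp4a copies may share reads.

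Other members of the list fell as well. Creb3l3, a liver and gut transcription factor of fasting, had 7.73, 17.8 and 12.7 CPM in the plain libraries and 2.91, 3.86 and 3.19 CPM in the hyphenated ones and was 3.93-fold lower (adjusted p = 0.0169, up to 0.0717 and not called with replicate 3 of either genotype left out). Acot1, a cytosolic acyl-CoA thioesterase, fell 2.49-fold, Plin2, a coat protein of lipid droplets, 2.39-fold, and Ehhadh, the peroxisomal bifunctional enzyme, 1.83-fold. Ucp2, Cyp4a31, Acaa1b, Etfdh and Acaa2 were the others called, at 1.32-fold to 1.77-fold, and each of these 5 lost its call with wild type replicate 3 left out. Acot1, Plin2 and Ehhadh held with each library left out, as did Pdk4, Cyp4a14 and Cyp4a10. Cpt1a, which admits long-chain fatty acids to mitochondria, had overlapping groups and a log2 difference of -0.12 ± 0.076 (adjusted p = 0.429), and Acadm, the medium-chain dehydrogenase, lay at 0.15 ± 0.083 (adjusted p = 0.375). Ppargc1a, a coactivator of mitochondrial genes, had the smallest p among members above 0, with 62.7, 62.6 and 53.02 CPM in the plain libraries and 72.8, 61.03 and 59.9 CPM in the hyphenated ones (adjusted p = 0.145). With wild type replicate 1 left out the list again held 13 lower genes, and with wild type replicate 3 left out it held 6. Leaving out wild type replicate 2 or PT-I-PpoI replicate 3 left 8. In each genotype alone the list's median was below 0, at -0.34 in wild type and -0.47 in PT-I-PpoI.

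Genes of the endoplasmic reticulum and of sterol synthesis lay slightly higher in the hyphenated libraries. Of 20 unfolded protein response genes, which encode chaperones and degradation factors of the endoplasmic reticulum, 5 rose and 0 fell (background 1.77% and 1.29%). All 20 had a log2 difference above 0, against 48.6% of all genes (median 0.26). The summed level was 3093 to 3515 CPM in the plain and 3981 to 4224 CPM in the hyphenated libraries. Herpud1, a factor of protein degradation, had 198, 283 and 297 CPM in the plain libraries and 406, 407 and 419 CPM in the hyphenated ones (1.53-fold, adjusted p = 0.0429). Canx, the lectin chaperone calnexin, had 274, 266 and 317 CPM in the plain libraries and 398, 402 and 405 CPM in the hyphenated ones (1.37-fold, adjusted p = 0.0163). The forms overlapped for neither gene, but the calls of this list depended on which library was left out. The number of its 20 genes called was 0 without PT-I-PpoI replicate 3, wild type replicate 2 or wild type replicate 3, and 1 without PT-I-PpoI replicate 1. It was 6 without PT-I-PpoI replicate 2 and 7 without wild type replicate 1. Highest adjusted p-values in these fits were 0.0729 for Canx and 0.186 for Herpud1.

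Of 24 sterol synthesis genes, 3 rose and 0 fell (background 1.77% and 1.29%). Above 0 lay 20 of them, where 48.6% of all genes did (median 0.22). Sc5d, a sterol desaturase, had 29.4, 24.3 and 26.1 CPM in the plain libraries and 47.1, 46.8 and 49.3 CPM in the hyphenated ones, all hyphenated libraries above all plain ones, and was 1.8-fold higher (adjusted p = 0.00339). Hmgcs1, the cytosolic synthase at the head of the pathway, had 297, 269.6 and 277 CPM in the plain libraries and 397, 430.1 and 439.6 CPM in the hyphenated ones (1.48-fold, adjusted p = 0.00835). Both held with each library left out. Mvd was the other gene called (adjusted p = 0.0324, up to 0.112 with a library left out). The list held 7 higher genes without wild type replicate 1 and 2 without wild type replicate 3. Scd1, a fatty acid desaturase, was the only 1 of 17 fatty acid synthesis genes called, and it was lower (305, 217 and 319 CPM in the plain libraries and 197, 148 and 144 CPM in the hyphenated ones; adjusted p = 0.0465). Its call did not hold with DESeq2 or limma, nor without any wild type library or PT-I-PpoI replicate 1.

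Marker genes of the proximal tubule, many of them transporters, lay mostly higher. Of 33 markers of the convoluted part, 6 rose and 0 fell (background 1.77% and 1.29%), and 32 lay above 0, where 48.6% of all genes did. Their median log2 difference was 0.27, and their summed level was 29780 to 35330 CPM in the plain and 35970 to 41770 CPM in the hyphenated libraries. Slc34a1, the main phosphate transporter of the kidney, had 4524, 3628 and 5409.8 CPM in the plain libraries and 6495, 7002 and 7985 CPM in the hyphenated ones (1.49-fold, adjusted p = 0.0307, up to 0.136 with a library left out). The sugar transporters Slc2a5 and Slc2a2 held with each library left out. Slc2a5 had 71.6, 80.2 and 88.99 CPM in the plain libraries and 115, 126 and 139 CPM in the hyphenated ones (1.5-fold, adjusted p = 0.00817) and Slc2a2 had 121, 116 and 129 CPM in the plain libraries and 168, 173 and 179 CPM in the hyphenated ones (1.39-fold, adjusted p = 0.00896). Slc22a6, the organic anion transporter OAT1, Cyp2e1 and Slc26a1 were the others called, and each lost its call without wild type replicate 2 or 3. DESeq2 called 13 of the 33, and edgeR 11 without wild type replicate 1 and 2 without wild type replicate 3. In bulk tissue, more cells of a type and more RNA per cell cannot be told apart.

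Of 23 markers of the straight part, 6 rose and 1 fell (background 1.77% and 1.29%), with a median of 0.22. Slc22a7, the organic anion transporter OAT2, had 75.1, 75.1 and 94.3 CPM in the plain libraries and 243, 219 and 192 CPM in the hyphenated ones and was 2.65-fold higher in the hyphenated libraries (log2 difference 1.41 ± 0.12 SE, adjusted p = 0.000928). Slc7a12, an amino acid transporter that is known to be higher in female mouse kidney, went the other way, with 21.96, 30.6 and 10.3 CPM in the plain libraries and 2.06, 0.833 and 2.84 CPM in the hyphenated ones. It was 7.72-fold lower in the hyphenated libraries (log2 difference -2.95 ± 0.37 SE, adjusted p = 0.00654). Both calls held with each library left out. The straight part list held 8 higher and 3 lower genes without wild type replicate 1, and 2 and 1 without wild type replicate 3.

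The 15 androgen-responsive genes of the proximal tubule, which share members with the lists just described, moved in both directions: 5 rose and 3 fell (background 1.77% and 1.29%), with a median of 0.41. Their summed level was 25800 to 36790 CPM in the plain and 41460 to 42880 CPM in the hyphenated libraries. Cndp2, a dipeptidase, had 457, 479.5 and 619 CPM in the plain libraries and 836, 1188 and 1155 CPM in the hyphenated ones and was 1.84-fold higher (adjusted p = 0.000928). Slco1a1, an organic anion transporter, had 72.7, 57.5 and 199.6 CPM in the plain libraries and 334, 327 and 327 CPM in the hyphenated ones, with the plain wild type library between the plain PT-I-PpoI libraries and the hyphenated ones (2.88-fold, adjusted p = 0.0284, up to 0.0957 and not called with wild type replicate 3 or PT-I-PpoI replicate 1 left out). Prlr, the prolactin receptor, had 54.5, 48.7 and 40.5 CPM in the plain libraries and 11.6, 7.8 and 11.5 CPM in the hyphenated ones and was 4.28-fold lower in the hyphenated libraries (log2 difference -2.10 ± 0.14 SE, adjusted p = 0.000437). Kap, an androgen-regulated kidney protein, had 22113, 19263 and 28060.1 CPM in the plain libraries and 32647, 31529 and 31532 CPM in the hyphenated ones and was not called (adjusted p = 0.107). The Y-linked gene Eif2s3y was present in all 6 libraries at 46.0 to 53.2 CPM. Cndp2 and Prlr held with each library left out. The list held 8 higher and 4 lower genes without wild type replicate 1, and 1 and 2 without wild type replicate 3.

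Some nuclear and ribosomal transcripts differed too. Malat1 (chr19:5795690-5802671), an abundant long noncoding RNA that stays in the nucleus, had 306, 265 and 288 CPM in the plain libraries and 864, 773 and 977 CPM in the hyphenated ones. The groups lay far apart, and Malat1 was 3.04-fold higher in the hyphenated libraries (log2 difference 1.60 ± 0.11 SE, adjusted p = 0.000437). Neat1, its neighbour on chromosome 19 and likewise nuclear, had 1129, 1209 and 1092 CPM in the plain libraries and 1191, 1053 and 1111 CPM in the hyphenated ones, overlapping groups with a log2 difference of 0.01 ± 0.071 (adjusted p = 0.972). On the list of 15 nuclear RNAs and host genes of small nucleolar RNAs, Malat1 was the only riser and 4 fell (background 1.77% and 1.29%). Those that fell were Snhg1, Snhg12, Snhg6 and Snhg8, and the list's median log2 difference was -0.52. Snhg1 had 18.5, 21.02 and 19.9 CPM in the plain libraries and 10.1, 12.04 and 11.9 CPM in the hyphenated ones (1.79-fold lower, adjusted p = 0.00868). Snhg1 held with each library left out, whereas the other 3 lost their calls without PT-I-PpoI replicate 1 or 3 or wild type replicate 2 or 3. Of 77 cytosolic ribosomal protein genes, 72 lay below 0 and 2 (2.60%, against 1.29% of all genes) were called lower, Rps27a and Rpl14. Rps27a, which also encodes ubiquitin, had 290.5, 255 and 291 CPM in the plain libraries and 188, 193 and 178 CPM in the hyphenated ones (1.51-fold lower, adjusted p = 0.00835). The list's median was -0.013 in wild type and -0.33 in PT-I-PpoI, and without wild type replicate 1 it held 18 lower genes. Rpl14 lost its call without PT-I-PpoI replicate 1 or 3 or wild type replicate 2 or 3 (adjusted p up to 0.115), and the list then held 1 lower gene. Actb, the cytoskeletal actin often used as a reference gene, had 348, 402 and 358 CPM in the plain libraries and 682, 626 and 634 CPM in the hyphenated ones and was 1.79-fold higher (adjusted p = 0.00137), whereas Gapdh, another such gene, had a log2 difference of 0.22 ± 0.07 (adjusted p = 0.138).

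Among single genes outside these groups, the largest rise was in Muc6, a gel-forming mucin (chr7:141634049-141655308), with 0.212, 0.166 and 0.433 CPM in the plain libraries and 5.74, 4.39 and 5.28 CPM in the hyphenated ones. It was 18.2-fold higher in the hyphenated libraries (log2 difference 4.19 ± 0.34 SE, adjusted p = 0.000928). The largest fall was in Spink6, a serine protease inhibitor, which had raw counts of 140, 119 and 84 in the plain libraries and 0 in all 3 hyphenated ones. Against a floor of 3 counts over the hyphenated group it was at least 94.9-fold lower there. Ugt1a10, a glucuronosyltransferase whose exons are shared with its gene cluster, had 12.6, 8.99 and 7.08 CPM in the plain libraries and 1.84, 0.833 and 0.797 CPM in the hyphenated ones and was 7.13-fold lower (adjusted p = 0.000928). The retinaldehyde dehydrogenases Aldh1a1 and Aldh1a7, close copies on chromosome 19, were 2.65-fold and 2.21-fold lower (adjusted p = 0.00283 and 0.000928). Pnrc1, a nuclear receptor coactivator, had 103, 107 and 133 CPM in the plain libraries and 49.6, 54.7 and 59.2 CPM in the hyphenated ones and was 2.23-fold lower (adjusted p = 0.000437). Txnip, an arrestin that is known to follow glucose supply, had 869, 987 and 578 CPM in the plain libraries and 443, 415 and 353 CPM in the hyphenated ones (1.78-fold lower, adjusted p = 0.0121, 0.0569 without wild type replicate 3). Kif20b, a kinesin, rose 2.63-fold (adjusted p = 0.0154), and Cpeb3, an RNA-binding protein, rose 2.05-fold (adjusted p = 0.000928). The genes of this paragraph other than Txnip held with each library left out. Just past the threshold, Slco4c1 lay at -1.20 ± 0.27 and Mapk4 at 0.46 ± 0.10 on the log2 scale, each with an adjusted p of 0.0501.

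Other genes among the 99 called with each library left out are named here after their values were seen, and all but Slc5a3 are on none of the lists. Acot3, a peroxisomal acyl-CoA thioesterase, had 103, 123 and 68.6 CPM in the plain libraries and 41.8, 37.4 and 42.9 CPM in the hyphenated ones (2.14-fold lower, adjusted p = 0.0088). Hacl1, a lyase of peroxisomal alpha-oxidation, was 1.53-fold lower and Slc27a1, a fatty acid transport protein, 1.45-fold lower. Aqp7, a water and glycerol channel of the straight tubule, had 16.99, 17.9 and 18.2 CPM in the plain libraries and 29.8, 29.9 and 26.8 CPM in the hyphenated ones (1.63-fold higher, adjusted p = 0.00835). Slc5a3, the myo-inositol transporter, had 117, 121 and 66.8 CPM in the plain libraries and 177, 108 and 104 CPM in the hyphenated ones, overlapping groups that parted at equal genotype (1.54-fold higher, adjusted p = 0.00296). Lrrc8a, a subunit of the volume-regulated anion channel, was 1.43-fold higher, and Furin, a proprotein convertase, 1.49-fold higher. Slc25a30, a mitochondrial carrier, had 54.5, 52.1 and 65.9 CPM in the plain libraries and 26.1, 28.2 and 33.9 CPM in the hyphenated ones (2.08-fold lower, adjusted p = 0.000928). Maf, a transcription factor, was 1.55-fold higher, Id4, an inhibitor of helix-loop-helix factors, 2.04-fold lower, and Zfp36l1, an mRNA decay factor, 1.56-fold lower. Inmt, a methyltransferase, had 649, 525 and 786 CPM in the plain libraries and 1049.6, 1269 and 1369.9 CPM in the hyphenated ones (1.73-fold higher, adjusted p = 0.0055).

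**Figure D4:**
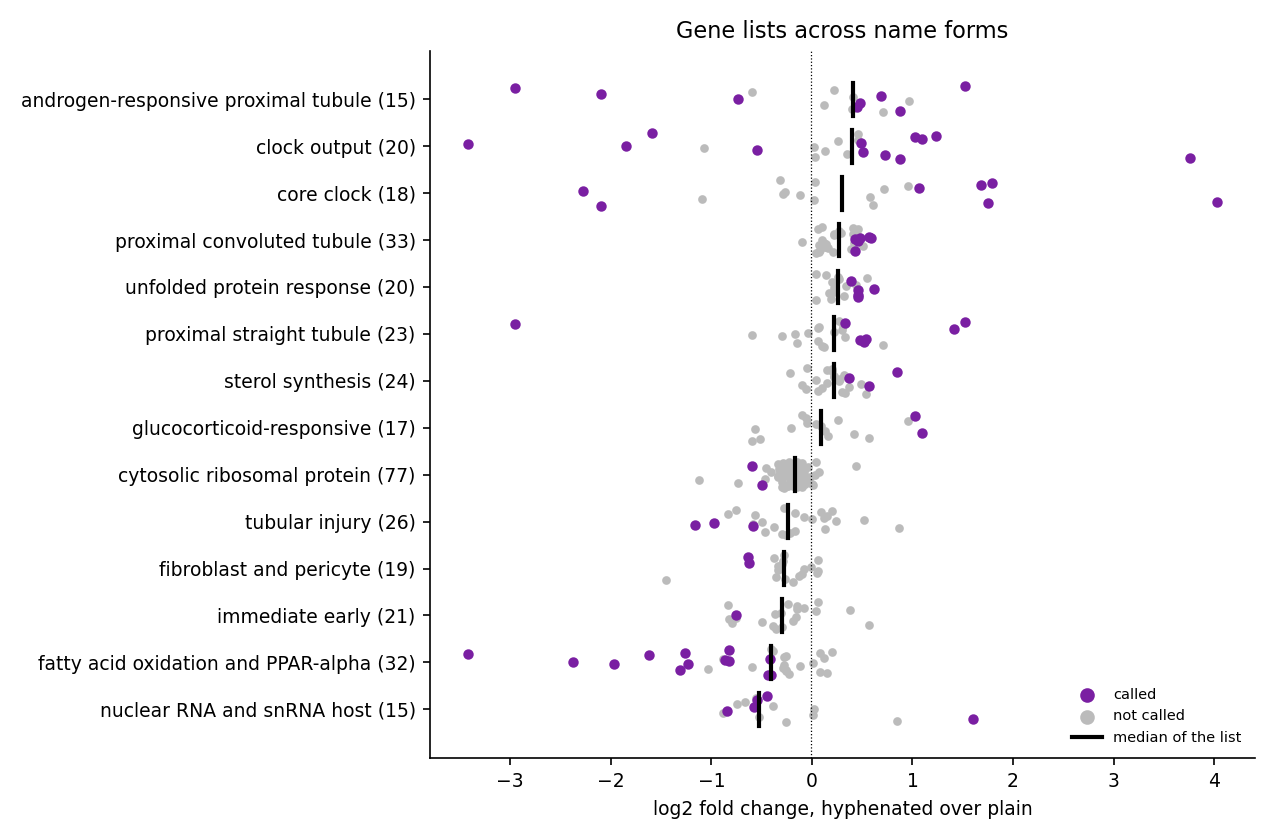
Log2 fold change, hyphenated over plain, of every tested member of 14 gene lists (number tested in brackets); called genes are purple, others grey, the black bar is the list's median and the dotted line the median of all genes. Unfolded protein response and proximal convoluted tubule genes sit to the right, fatty acid oxidation genes to the left, and the 2 clock lists spread both ways.

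Of 19 fibroblast and pericyte markers 2 fell (10.5%, against 1.29% of all genes), Tagln and Pdgfra, and 16 lay below 0 (median log2 difference -0.28), with summed levels of 395.1 to 419.5 CPM in the plain and 303.1 to 345.3 CPM in the hyphenated libraries. Pdgfra, a fibroblast receptor, had 34.6, 31.3 and 33.5 CPM in the plain libraries and 20.8, 25.4 and 19.5 CPM in the hyphenated ones (1.54-fold lower, adjusted p = 0.0274). Both lost their calls with replicate 3 of either genotype left out. Of 26 tubular injury genes 3 fell (11.5%), Fga, Fgg and Dcdc2a, of which Fga and Fgg held with each library left out. The list as a whole overlapped between the forms, with 9 genes above 0 and summed levels of 1947 to 2112 CPM in the plain and 1921 to 2168 CPM in the hyphenated libraries. Fga, a fibrinogen chain that injured tubules also make, had 91.2, 91.3 and 117 CPM in the plain libraries and 53.8, 38.6 and 41.2 CPM in the hyphenated ones (2.24-fold lower, adjusted p = 0.00642). Ier5 was the only 1 of 21 immediate early genes called, 1.69-fold lower (adjusted p = 0.0112), and 6 were called lower without wild type replicate 1. Among other cell types, where 1.29% of all genes were lower, 1 of 15 podocyte markers was lower (Tcf21), 1 of 20 endothelial markers (Egfl7), 1 of 16 thick ascending limb markers (Cldn10) and 2 of 18 intercalated cell markers (Kit and Atp6v1b1). All 5 lost their calls with replicate 3 of either genotype left out. No marker was called lower among 21 of collecting duct principal cells, 18 of the distal convoluted tubule or 14 of thin limb and medulla. The same held for 22 macrophage and monocyte, 7 T and NK cell and 8 B and plasma cell markers. Of 9 adipocyte markers 1 was lower (Lipe), and it was not called with PT-I-PpoI replicate 3 or any wild type library left out. The adipocyte list's median log2 difference was -1.57 in wild type and 0.96 in PT-I-PpoI. Its summed level was highest in wild type replicate 1, at 327.3 CPM. Neutrophil markers, of which 3 were tested and 3 were at 0 in all libraries, summed to 5.74 to 7.13 CPM in the plain and 3.04 to 5.15 CPM in the hyphenated libraries, with none called. Red blood cell markers, 6 of which were at 0 in all libraries, summed to 121.3 to 129.9 CPM in the plain and 125.3 to 151.2 CPM in the hyphenated ones. The part of any of these cell types in the differences above was not tested.

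Genes of the DNA damage response, the process that I-PpoI is used to start, are given for completeness, since with 3.06% of all genes called a list of this size may hold none. By edgeR, 0 of 29 p53 targets and 0 of 27 double-strand break repair genes passed, while DESeq2 called 1 p53 target and 0 repair genes. The p53 targets had a median log2 difference of -0.024 and the repair genes of -0.049. Ccng1, a cyclin induced by p53, came nearest, with 120.2, 107 and 142 CPM in the plain libraries and 174, 177 and 161 CPM in the hyphenated ones (1.35-fold, adjusted p = 0.0516), and 3 p53 targets were called without wild type replicate 1. The cell cycle list held 1 call, Ccnd1, which encodes cyclin D1 and had 154, 174 and 163 CPM in the plain libraries and 288, 269 and 226 CPM in the hyphenated ones (1.63-fold higher, adjusted p = 0.00835). The 31 lists outside the 14 drawn in the figure of gene lists include the p53, repair and cell cycle lists. They also include other lists described above, so several of their calls are already named. Over these 31 lists, 5 entries were called higher and 15 lower among 554 tested (all genes: 1.77% higher and 1.29% lower). Their medians ran from -0.948 to 0.518. Of the 428 called genes, 87 were on any list and 341 on none.

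The form difference was not the same in both genotypes for 96 genes (0.687% of those tested), 65 of them with opposite directions. This test rests on 1 hyphenated PT-I-PpoI library and 1 plain wild type library, the latter being wild type replicate 1, and it cannot be fitted without either. The 96 included glucocorticoid-responsive genes, core clock genes and, most of any list, clock output genes. Tsc22d3 is on both the glucocorticoid and the clock output list. For Usp2, a clock output gene among the 96, the form difference was 0.78 in wild type and 1.70 in PT-I-PpoI. Sgk1, a kinase of sodium transport, had 77.2, 86.4 and 164 CPM in the plain libraries and 186, 104 and 105 CPM in the hyphenated ones. Its form difference on the log2 scale was -0.65 for wild type and 1.18 for PT-I-PpoI (interaction adjusted p = 0.00109, edgeR). Tsc22d3, a mediator of glucocorticoid action, had 25.8, 30.3 and 42.5 CPM in the plain libraries and 77.9, 64.2 and 63.2 CPM in the hyphenated ones, differences of 0.58 and 1.47 (interaction adjusted p = 0.0355). Per1 showed 0.25 and 1.74 (interaction adjusted p = 0.0129), its plain wild type value of 53.8 CPM lying near the hyphenated ones. The median of the 17 tested glucocorticoid-responsive genes was -0.20 in wild type and 0.56 in PT-I-PpoI. With name form fitted over both genotypes 2 of them rose (background 1.77%), Tsc22d3 and Hif3a. Hif3a (adjusted p = 0.0471) lost its call with DESeq2, with upper-quartile factors and with any library but wild type replicate 1 left out (adjusted p up to 0.3). On the same list, 8 genes rose without wild type replicate 1, again a value from PT-I-PpoI alone. In the clock, the form difference of Arntl was -2.86 in wild type and -1.26 in PT-I-PpoI (interaction adjusted p = 0.0114). That of Nr1d1 was 1.44 and -0.0011 (interaction adjusted p = 0.00874).

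With name form in the fit, 49 genes were higher and 15 lower in PT-I-PpoI (0.458% of those tested), and without it 19 were higher and 0 lower (0.136%). The common biological coefficient of variation was 0.0943 with both terms and 0.129 with genotype alone. Genes called for both genotype and name form numbered 12, and 9 of them had opposite directions. Cyp24a1, the vitamin D hydroxylase, was among the 3 with the same direction, with 77.3, 164 and 416 CPM in the plain libraries and 40.1, 103 and 156 CPM in the hyphenated ones. Its groups overlapped between the forms and separated only at equal genotype (3.11-fold lower, adjusted p = 0.0169, 0.0556 without wild type replicate 1). Cp, the copper carrier ceruloplasmin, had 93.6, 80.8 and 60.1 CPM in the plain libraries and 48.2, 34.5 and 34.5 CPM in the hyphenated ones, 1.77-fold lower in the hyphenated ones (adjusted p = 0.0019). Odc1, the first enzyme of polyamine synthesis, had 309, 292 and 419 CPM in the plain libraries and 413, 788 and 799.6 CPM in the hyphenated ones (1.61-fold higher, adjusted p = 0.0138, 0.0558 without wild type replicate 3).

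Transcripts of other organs were picked by a rule on zero counts among all 24421 genes, so their separation by form is no result. Of genes at 0 in all libraries of one form, above 0 in all of the other and with at least 10 counts there, 12 were at 0 in the plain and 6 in the hyphenated libraries. The 12 are genes known from liver (Mup3, Mup7, Mup14, Mup20, Ahsg, Cps1, Uox, F12 and Ugt2b36) or epididymis (Lcn5, Rnase9 and D730048I06Rik), and none passed the filter on low counts. Mup3, a major urinary protein, had 243 counts in wild type replicate 3, 7 in PT-I-PpoI replicate 3 and 3 in wild type replicate 2. Ahsg, a plasma glycoprotein, had 234, 9 and 2 counts in the same order, and Lcn5, an epididymal lipocalin, had 71, 10 and 6. Summed over the 12 genes, wild type replicate 3 held 995 counts, or 47.7 CPM of its total. PT-I-PpoI replicate 3 held 50 counts, 7.34% of that CPM, and wild type replicate 2 held 32 counts, 4.94% of it. Members of the Mup family are near-identical, so their counts may be shared. Alb, which encodes serum albumin, had 11.2, 10.9 and 10.4 CPM in the plain libraries and 9.92, 10.1 and 110.1 CPM in the hyphenated ones, high in wild type replicate 3 alone. Of 9 adrenal and liver markers that did enter the tests, 0 rose and 2 fell, Fga and Fgg (background 1.77% and 1.29%). Of the other 6 genes at 0, Spink6 was the only 1 tested. The part of these transcripts in the differences above was not tested. Since the filter kept the 12 genes out of the test, none of them could be among the 428 called genes.

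**Figure D5:**
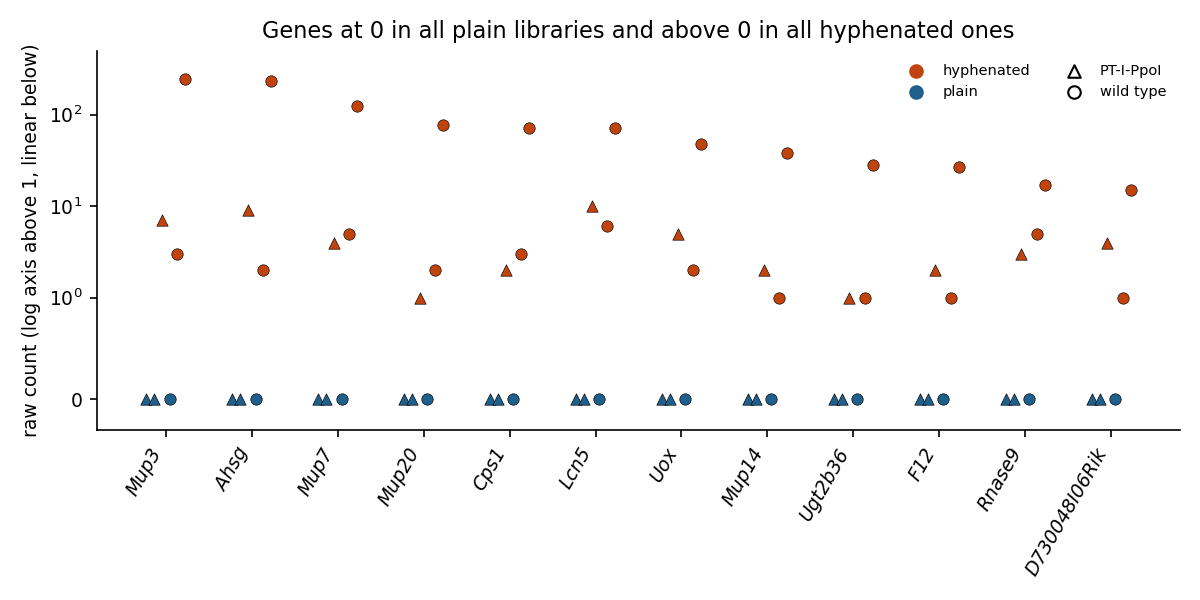
Raw counts (symmetric log axis) of the 12 genes that are at 0 in all 3 plain libraries and above 0 in all 3 hyphenated ones; colour gives the name form and shape the genotype. Wild type replicate 3 is highest for every gene, at 15 to 243 counts, and the other hyphenated libraries hold 1 to 10.

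Across the genome, called genes were spread over all main chromosomes, from 1.59% of tested genes on X to 5.85% on chromosome 19, where Malat1, Slc22a6, Snhg1 and Kif20b lie. By class, 3.11% of 12792 protein-coding genes and 2.75% of 472 long noncoding RNA genes were called. Across the 13977 genes, which are not independent replicates, the log2 difference had a Spearman correlation of 0.24 with mean level and of 0.15 with exonic length. The correlation with length was 0.017 in wild type and 0.20 in PT-I-PpoI. With GC content of the coding transcript, known for 89.7% of genes, it was 0.20 in wild type and -0.24 in PT-I-PpoI, so these 2 within-genotype differences had opposite relations to GC.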

How the data were processed

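Kidney cortex RNA of 6 libraries was made into stranded mRNA libraries and read as pairs for 100 cycles, per the labels' protocols. The authors deposited raw read counts per gene for 24421 genes, mapped with HISAT2 and counted with featureCounts 1.5.2 per the labels' protocols, with no strand option per the file headers. They also deposited log2 values on the regularized log scale, used only for an alternative test. The labels name mm9 and the file header mm10: 99.4% of 23159 genes matched by symbol overlapped their GRCm38.p6 (mm10) position and 11.7% of 20805 their mm9 position, so coordinates are mm10.

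Counts were tested in R 4.3.3 with edgeR 4.0.16 (quasi-likelihood, TMM scaling, expression filter with a minimum count of 10, two-sided) with genotype and name form as terms and 3 residual degrees of freedom. P-values were adjusted by Benjamini-Hochberg over 13977 genes at a threshold of 0.05. The standard error is the log2 difference over the square root of F. CPM uses TMM-scaled totals. Total counts were 13.58 to 20.86, in units of 1e+06 reads, which limits precision for low genes. The scripts were tested on simulated data. Alternatives were other scaling and filters, DESeq2 1.42.0, limma 3.58.1, an interaction fit, fits without genotype, with a replicate block or with other thresholds, and each library left out.

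The comparison, its 46 gene lists and the tests were chosen with earlier results of these data known. Named genes are the 15 largest called changes per direction with at least 1 CPM and equal direction in both genotypes, the 2 nearest past the threshold and up to 4 per list by p with the nearest in the other direction; for any other gene named, the choice followed a look at its values. A list of 26 mitochondrial DNA genes is not analysed here. Libraries differed by more than sampling noise in every pair (chi-square per degree of freedom of at least 4.63). Some named genes are not reported here.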

Additional observations from a re-analysis of the deposited data

Results flagged for a closer look

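The test of the difference between genotypes named 96 genes whose name form difference was unequal in wild type and PT-I-PpoI. Each of the 7 genes below is named elsewhere by the rule and passed that test, with the log2 value given as PT-I-PpoI minus wild type. For Dbp, the D-box activator, it was -1.84 ± 0.26 SE: the rise was larger in wild type. Arntl, the BMAL1 gene, had 1.59 ± 0.21, its fall being larger in wild type, and Per1, a clock repressor, had 1.47 ± 0.20. Slco1a1, an organic anion transporter, had 1.65 ± 0.17 and Tsc22d3, a glucocorticoid target, 0.89 ± 0.15, both with the larger rise in PT-I-PpoI. Fga, a fibrinogen chain, had 0.78 ± 0.12, its fall being larger in wild type. Serpina1a, a protease inhibitor of the alpha-1-antitrypsin family whose near-identical copies may share reads, had -2.42 ± 0.32, with 47.5, 69.4 and 31.3 CPM in the plain libraries and 9.99, 30.2 and 27.1 CPM in the hyphenated ones. Adjusted p-values by edgeR's interaction test ran from 0.0042 for Slco1a1 to 0.0355 for Tsc22d3. All 7 values rest on 1 plain wild type library and 1 hyphenated PT-I-PpoI library.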

How the results depend on the processing

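All 428 called genes kept their direction in every alternative that tested them, and 99 were called with each library left out. Every alternative used the libraries that picked these genes, so the kept direction is not separate support. Genes higher and lower in the hyphenated libraries numbered 712 and 471 with the difference averaged over genotypes in the interaction fit, 434 higher with DESeq2, 50 and 36 at a threshold of 0.01, and 512 and 371 at 0.1. Leaving out 1 library gave 70 to 558 higher and 51 to 295 lower. With upper-quartile factors 45.8% of calls were higher, against 57.9%. Replicate numbers did not pair the libraries (correlations of deviations between same-numbered libraries 0.219, -0.128 and 0.163), and a fit with a replicate block called 26 higher and 29 lower, 42 of them among the 428. In both genotypes replicate 1 is plain and replicate 3 hyphenated. The form difference in the block fit therefore comes from replicate 2 alone, with fewer residual degrees of freedom than in the main fit. Genes higher and lower in PT-I-PpoI numbered 193 and 183 in the interaction fit, 98 and 41 with no filter, 131 and 107 with DESeq2, 0 and 0 at 0.01 and 94 and 41 at 0.1. With a library left out they ranged from 4 to 236 and from 0 to 349. Unequal differences between genotypes numbered 215 with no filter and 103 to 878 with a library left out, which could not be fitted without wild type replicate 1 or PT-I-PpoI replicate 3.

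List medians on the authors' deposited regularized log values, which shrink low genes, were 0.153 for the core clock, 0.216 for clock output, -0.0890 for immediate early genes, 0.110 for sterol synthesis, -0.242 for fatty acid oxidation, 0.171 for the convoluted and 0.134 for the straight tubule, 0.266 for androgen-responsive genes, -0.0955 for fibroblasts, -0.0509 for tubular injury and -0.159 for nuclear RNAs. With the replicate block they were 0.0787, 0.269, -0.504, 0.291, -0.556 and 0.208 for the first 6 of these, 0.116 for the unfolded protein response, 0.0697 for fibroblasts, where the sign turned, -0.110 for tubular injury and -0.425 for nuclear RNAs. Without genotype in the fit they were 0.354 for the core clock, 0.148 for the straight tubule and -0.362 for tubular injury, and with a filter of 1 CPM -0.448 for nuclear RNAs. With a library left out, medians ranged from 0.105 to 0.333 for the core clock, 0.310 to 0.478 for clock output, -0.199 to 0.556 for glucocorticoid-responsive genes, -0.310 to -0.242 for immediate early genes, 0.223 to 0.408 for the unfolded protein response, 0.167 to 0.258 for sterol synthesis, 0.201 to 0.297 for the convoluted and 0.157 to 0.345 for the straight tubule, 0.254 to 0.457 for androgen-responsive genes, -0.329 to -0.0087 for ribosomal proteins and -0.492 to -0.430 for nuclear RNAs. The cause of these shifts was not tested. Medians with the replicate block rest on the form contrast within replicate 2, with the genotype difference taken from the other replicates. Of 79 called named genes, 18 held in all alternatives run and 61 lost the call in at least 1, 18 of these with the block only.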

Other observations

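Several genes with unequal differences between genotypes had values in 1 or 2 libraries far from the others, and are chosen here after their values were seen. AI506816, an uncharacterised transcript, had 7.73, 8.61 and 6.69 CPM in the plain libraries and 4.82, 0.0757 and 0.199 CPM in the hyphenated ones: both hyphenated wild type libraries lay near 0 and the other 4 libraries did not. Eno1b, an enolase gene copy, had 75.4, 90.1 and 2.22 CPM in the plain libraries and 2.06, 1.89 and 1.79 CPM in the hyphenated ones, high in the 2 plain PT-I-PpoI libraries. Eddm3b and Angptl7 were likewise high in those 2 libraries, with 11.3, 10.9 and 0.53 CPM in the plain libraries and 1.56, 0.984 and 1.2 CPM in the hyphenated ones for Eddm3b and 59.1, 55.4 and 4.48 CPM in the plain libraries and 9.43, 8.33 and 4.53 CPM in the hyphenated ones for Angptl7, an angiopoietin-like secreted factor. Slc14a2, the urea transporter of the inner medulla, was lowest in wild type replicate 1, with 103, 84.1 and 6.07 CPM in the plain libraries and 83.8, 28.6 and 20.8 CPM in the hyphenated ones. Gm6300, a predicted gene, was called for name form (6.29-fold higher, adjusted p = 0.00835), with 5.56, 2.43 and 10.6 CPM in the plain libraries and 46.6, 44.4 and 32.5 CPM in the hyphenated ones.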
